A study of Mus musculus with 6 samples.

Results

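The genes described here are 10 mouse transcription factors whose expression marks where in the body a fat depot formed: Tcf21, Gata6, Gata4, Osr1, Tbx18, Tbx15, Shox2, En1, Prrx1 and Tbx5. They were taken by gene symbol, whatever their level, which gave 23 probe sets of the 45101 in the deposited table, with at least 1 for each gene. They were chosen with the levels on these arrays already known, so their levels by replicate number are given as a description, with no test. A probe set is a group of short probes that reads a stretch of a transcript, and different probe sets of a gene need not agree.

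The samples are epididymal white fat, a visceral depot beside the epididymis, from male C57BL/6 mice aged 16 weeks that ate chow freely. AFO mice carried floxed Fto together with Cre recombinase under adiponectin control, which is active in fat cells, so other cells of the tissue keep an intact Fto gene. Control mice carried floxed Fto without Cre, so the floxed copies are common to both genotypes. Each genotype was measured on 3 Affymetrix arrays, each from its own pool of RNA, and the number of mice in a pool is not given in the sources used here. The p-values therefore measure the spread between RNA pools. Values below are log2 expression levels, where 1 unit is a doubling, and each set of values for a genotype is listed in the order of replicate numbers 1, 2 and 3.

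Fat depots keep a record of their embryonic position in the transcription factors of their stromal, mesothelial and fat cells. In mice, Tcf21, Gata6 and other factors of the mesenchyme around the gut, heart and kidney are expressed in fat inside the abdomen, while Tbx15, Shox2 and En1 are expressed more in fat under the skin of the flank. The mesothelium, a sheet of cells that covers abdominal organs and visceral fat, also expresses Wt1 and Gata6. Tcf21 acts as a basic helix-loop-helix protein that binds E-boxes, the Gata proteins are zinc finger proteins that bind GATA motifs, and the T-box (Tbx) and homeodomain (Shox2, En1, Prrx1) proteins bind motifs of their own.

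Promoter sequence was at hand for 5 of the 10 genes, from RefSeq with build GRCm38.p6. The 3 printed here belong to genes that moved in opposite directions in the pattern described below, Tcf21 and Tbx18 (lower on the arrays labelled replicate 2) and Shox2 (higher on them). Each line holds the 250 bases before the annotated start on the minus strand, 5′ to 3′. They lie at chr10:22820144-22820393 for Tcf21, chr9:87731261-87731510 for Tbx18 and chr3:66981772-66982021 for Shox2. Capitals mark a match, on either strand, to 1 of 4 motifs: the E-box CANNTG, the GATA motif AGATAA, the T-box site TCACACC or the homeodomain core TAATTA.
Tcf21: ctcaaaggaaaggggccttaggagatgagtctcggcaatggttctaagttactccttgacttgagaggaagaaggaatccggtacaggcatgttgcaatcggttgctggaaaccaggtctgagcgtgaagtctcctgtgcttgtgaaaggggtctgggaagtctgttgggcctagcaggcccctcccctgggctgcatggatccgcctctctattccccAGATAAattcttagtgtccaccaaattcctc
Tbx18: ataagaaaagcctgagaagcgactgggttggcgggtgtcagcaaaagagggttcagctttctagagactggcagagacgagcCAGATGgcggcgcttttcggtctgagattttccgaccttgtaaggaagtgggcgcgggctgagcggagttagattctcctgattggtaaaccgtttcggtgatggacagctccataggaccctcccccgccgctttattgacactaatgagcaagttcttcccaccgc
Shox2: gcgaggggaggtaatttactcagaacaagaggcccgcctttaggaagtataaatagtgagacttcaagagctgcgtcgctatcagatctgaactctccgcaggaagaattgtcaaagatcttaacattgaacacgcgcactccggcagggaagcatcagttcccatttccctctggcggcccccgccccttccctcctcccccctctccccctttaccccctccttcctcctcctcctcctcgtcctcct

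In the Tcf21 window the GATA motif begins 31 bases before the start, and 9.99% of the 32851 promoter windows of this length hold at least 1 such motif. The Tbx18 window holds 1 E-box, 168 bases before the start, as 66.2% of windows hold at least 1. The Shox2 window holds none of the 4 motifs. The T-box site occurs in 3.33% of all windows and the homeodomain core in 4.84%, and neither occurs in the windows of Tcf21, Tbx18 or Shox2. A match in letters is a description and shows no binding. The E-box and GATA motifs do not overlap here.

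Before the factors are described, the tissue label was compared with its markers. All 10 adipocyte identity genes that had a probe set of their own, of 13 listed, lay on every array above the 95th percentile of 44 olfactory receptor probe sets, which served as a yardstick of low signal (5.39 to 5.89, depending on the array). All 11 mesothelial genes lay above it on AFO replicates 1 and 3 and on control replicates 1 and 3, against 3 of 11 on AFO replicate 2 and 4 of 11 on control replicate 2. The log2 of the summed mesothelial signal ran from 8.53 to 11.92 in AFO and from 9.85 to 11.81 in control fat, and the low end was replicate 2 in both genotypes. The arrays labelled replicate 2 thus went against the markers of their labelled depot, and the genotype test was run with and without them. Both fitted differences are given below for at least 1 probe set of Tcf21, Tbx15, En1, Gata6, Osr1, Prrx1 and Tbx18. Fto itself read 6.13, 5.45 and 5.95 in AFO and 6.11, 6.20 and 5.59 in control fat, a log2 difference of -0.12 (SE 0.24, limma adjusted p 0.999956). Its probes were not matched to the removed exon, so it checks no label.

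Tcf21, the factor of visceral mesenchyme, showed the widest swing among the 23 probe sets. It read 7.91, 2.64 and 8.05 in AFO fat and 7.89, 2.58 and 8.09 in control fat. The replicate 2 values lay at percentiles 4.38 (AFO) and 3.77 (control) of their arrays, while the other 4 values lay between percentiles 83.5 and 85.7 of theirs. Both replicate 2 values lay below the olfactory yardstick of their arrays (5.68 and 5.89), so the low side is not a measured level and no fold is given. The same holds for the replicate 2 values of Osr1, of Tbx18 and of the second brightest Gata6 probe set below. The genotypes overlapped fully, and equal replicate numbers of AFO and control differed by 0.02, 0.06 and -0.04. In tissue RNA, fewer cells of a type and less RNA per cell cannot be told apart.

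The other Tcf21 probe set (1458887_at) did not follow. It read 3.61, 3.81 and 3.70 in AFO and 3.52, 3.87 and 3.38 in control fat, below the olfactory yardstick on all 6 arrays. The pattern of Tcf21 therefore rests on 1 of its probe sets.

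**Figure D1:**
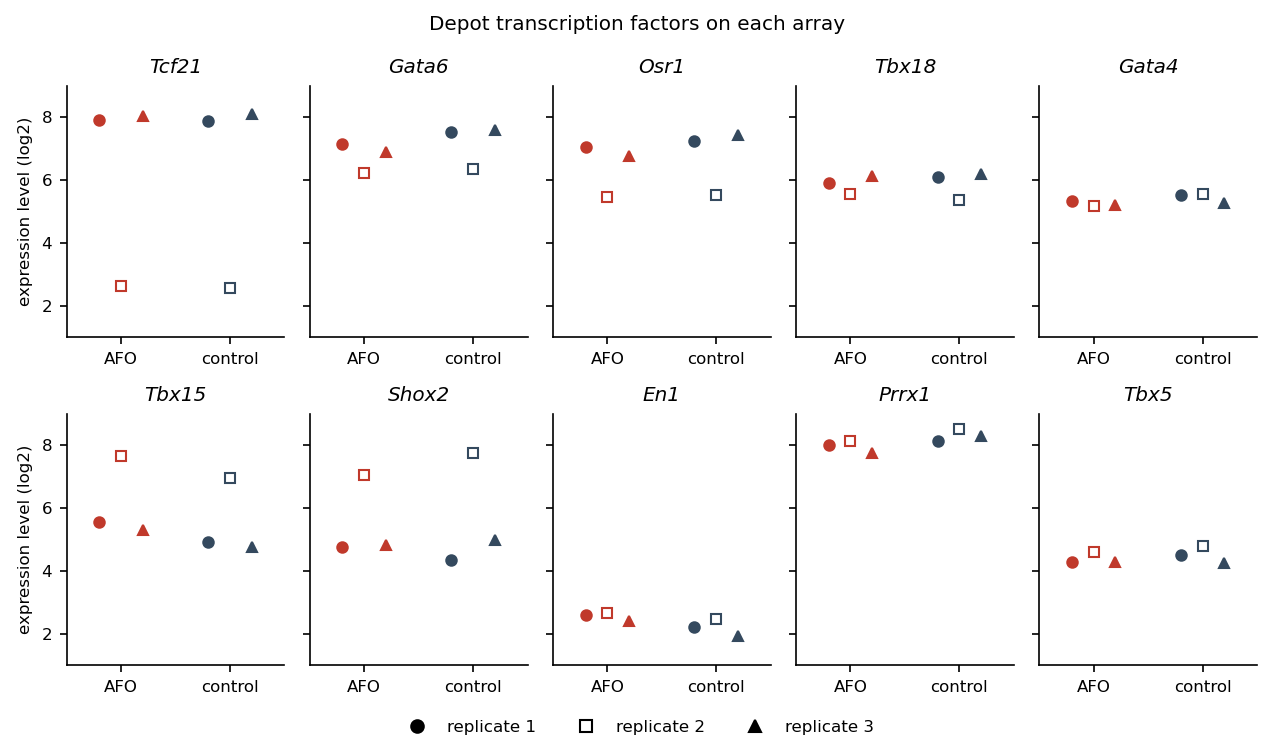
Expression level (log2, vertical axis) of the 10 factors in AFO (red) and control fat (dark grey), each shown by its brightest probe set. Each point is 1 array, with replicate 1 as circles, replicate 2 as open squares and replicate 3 as triangles. The open squares of Tcf21 sit near 2.6 in both genotypes while its other points sit near 8, and those of Tbx15 and Shox2 sit above all other points of their gene.

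Gata6, a zinc finger factor of the mesothelium and of heart and gut development, was also lower on replicate 2. Its brightest probe set (1425464_at) read 7.15, 6.22 and 6.90 in AFO fat and 7.55, 6.36 and 7.60 in control fat. The shift of replicate 2 from the mean of replicates 1 and 3 was -0.80 in AFO and -1.22 in control fat, and that of another Gata6 probe set (1425463_at) was -1.07 and -1.05. A further probe set (1443081_at) stayed between 3.67 and 4.32 in AFO and reached no more than the yardstick on any array in either genotype. Gata4, the close relative of Gata6, showed no such drop. Its brighter probe set read 5.35, 5.18 and 5.21 in AFO and 5.54, 5.56 and 5.27 in control fat, and neither of its 2 probe sets rose above the yardstick on any array.

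Osr1, a zinc finger factor of the intermediate mesoderm from which kidney and gonad form, read 7.07, 5.47 and 6.77 in AFO fat and 7.24, 5.54 and 7.44 in control fat. Both replicate 2 values were the lowest, by 1.45 and 1.80 from the mean of the other 2 arrays of their genotype. Tbx18, a T-box factor of the epicardium and of the mesenchyme around the ureter, read 5.90, 5.57 and 6.13 in AFO and 6.10, 5.37 and 6.20 in control fat. Its replicate 2 values were again below the other 4, by the smaller shifts of -0.44 and -0.78. The other Tbx18 probe set (1449871_at) lay between 3.92 and 4.07 in AFO and between 4.17 and 4.44 in control fat, below the yardstick.

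Tbx15, a T-box factor of limb, skin and skeletal muscle that is higher in flank fat of mice, ran the other way. Its brighter probe set (1418755_at) read 5.55, 7.65 and 5.29 in AFO fat and 4.91, 6.97 and 4.77 in control fat. Replicate 2 was the highest array of each genotype, by 2.23 in AFO and 2.13 in control fat. AFO replicate 3 and control replicates 1 and 3 lay below the yardstick, so these shifts are differences of the deposited values and no fold is given. The other Tbx15 probe set (1422195_s_at) read 3.50, 5.64 and 4.28 in AFO and 3.68, 4.64 and 3.50 in control fat. It moved the same way, by 1.75 and 1.05, although all its values lay below the yardstick.

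Shox2, a homeodomain factor of limb and sinoatrial node development, read 4.77, 7.03 and 4.84 in AFO fat and 4.35, 7.75 and 4.99 in control fat (probe set 1438042_at). It passed the yardstick on the replicate 2 arrays alone, so the level on the other 4 arrays is not measured and no fold is given. The other Shox2 probe set (1420559_a_at) was dim, from 2.87 to 3.27 in AFO and from 2.77 to 3.43 in control fat, with shifts of 0.33 and 0.66. En1, a homeodomain factor of the limb and the hindbrain boundary, was below the yardstick on every array. It read 2.59, 2.65 and 2.41 in AFO and 2.22, 2.46 and 1.91 in control fat, and its replicate 2 values overlapped the others. Of the 3 flank factors, Tbx15 and Shox2 were thus higher on replicate 2, and En1 was not measurable above low signal.

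Prrx1, a homeodomain factor of limb and skull mesenchyme whose lineage in mice includes flank fat, had replicate 2 values within 1 unit of the other arrays of their genotype on average. Its brightest probe set (1425528_at) read 8.02, 8.13 and 7.75 in AFO fat and 8.13, 8.51 and 8.30 in control fat. The other 5 Prrx1 probe sets had shifts of replicate 2 between 0.08 and 0.66 in AFO and between -0.45 and 0.26 in control fat. The widest range over the 6 arrays was 1.43, in 1425526_a_at, which read 5.44, 5.61 and 4.45 in AFO and 5.57, 5.88 and 5.66 in control fat, with AFO replicate 3 the lowest. Of all 6, the 1439774_at set alone had shifts of opposite sign in the genotypes. Tbx5, a T-box factor of the heart and forelimb, was below the yardstick on every array in both of its probe sets. The brighter one read 4.27, 4.61 and 4.28 in AFO and 4.50, 4.80 and 4.24 in control fat.

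Over the 23 probe sets, both replicate 2 arrays lay below the other 4 in 5 (Tcf21, Osr1, Tbx18 and 2 of Gata6) and above them in 10. These counts set the members by the values that chose them, and nothing is read from them. Over all 34945 probe sets the shares were 21.9% below and 19.1% above, so a small shift of replicate 2 was common on these arrays. A shift of at least 1 log2 unit in both genotypes was rarer, at 1.54% downward and 1.33% upward. In AFO alone, 4.14% of all probe sets were lower on replicate 2 by at least 1 unit and 2.94% higher, and in control fat alone 2.52% lower and 1.62% higher. The shift in both genotypes was met downward by 3 of the 23 (Tcf21, Osr1 and Gata6 1425463_at) and upward by 3 (Shox2 and both Tbx15 sets). The dimmer Tbx15 set left this count with quantile normalisation repeated (0.93 in control fat) and with median centring (0.98). Counts of such larger shifts among the 23 likewise rest on the values that chose the members, and nothing is read from them.

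**Figure D2:**
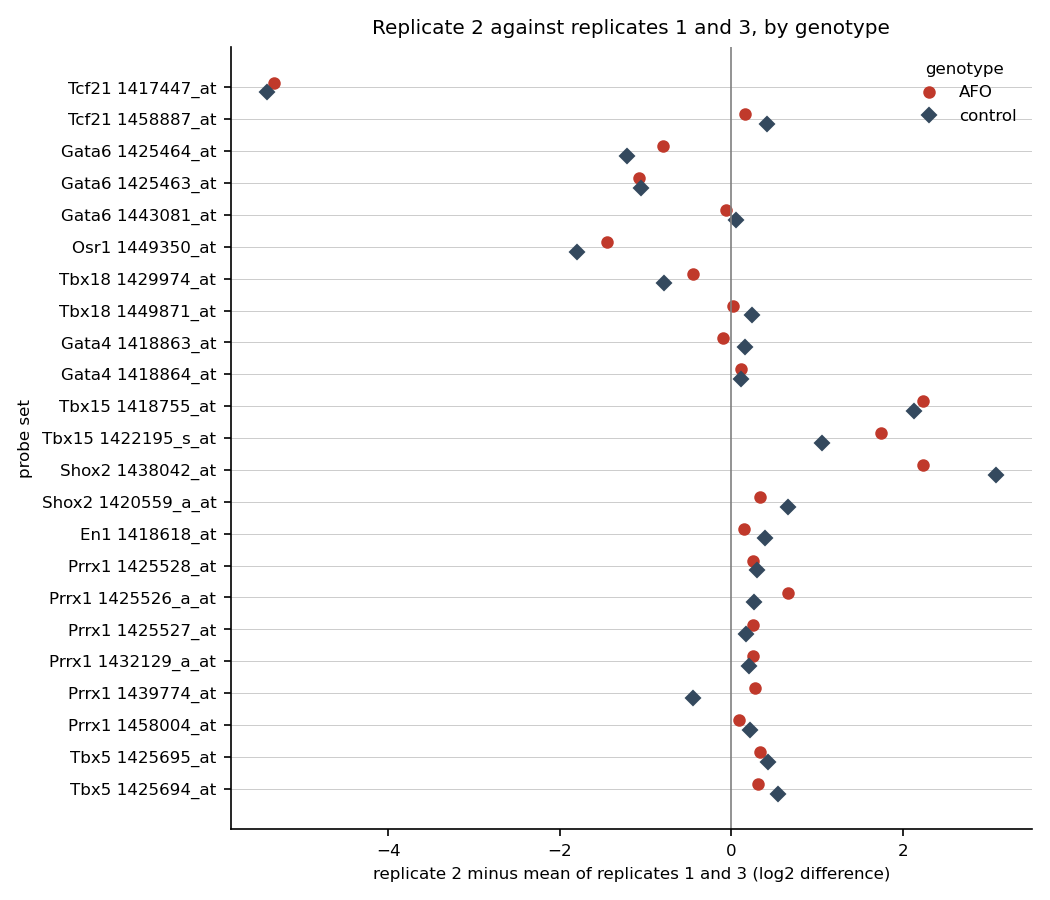
Level on replicate 2 minus the mean of replicates 1 and 3 (log2 difference, horizontal axis) for each of the 23 probe sets, with AFO as red circles and control as dark grey diamonds. Tcf21 1417447_at lies at -5.34 and -5.41, Shox2 1438042_at at 2.23 and 3.08, and most other probe sets lie within 1 unit of 0.

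Markers of some other cells moved with the same arrays, and skeletal muscle genes did so only in part. The median of 6 B cell genes was 4.65, 8.26 and 4.54 in AFO fat and 5.23, 7.65 and 4.67 in control fat, and all 6 were higher on both replicate 2 arrays than on the other 4. The log2 of their summed signal ran from 7.35 to 11.44 in AFO and from 7.35 to 10.80 in control fat. Skeletal muscle genes, a tissue that also expresses Tbx15, had medians of 9.20, 11.75 and 4.50 in AFO and 4.80, 9.20 and 5.09 in control fat. Their summed signal on the log2 scale ran from 8.90 to 15.01 in AFO and from 8.39 to 12.71 in control fat. Of 9 muscle genes, 3 were higher on both replicate 2 arrays than on the other 4, and in 6 the arrays overlapped. The muscle median was 9.20 on AFO replicate 1 and on control replicate 2, where Tbx15 read 5.55 and 6.97. On AFO replicate 3, with a muscle median of 4.50, Tbx15 read 5.29. Lymph node vessel and stroma genes, of which 3 of 5 had a probe set, were higher on both replicate 2 arrays in 3 of 3. Their medians were 5.33, 10.81 and 4.45 in AFO and 4.45, 10.28 and 4.51 in control fat, and the log2 of their summed signal ran from 7.57 to 12.16 in AFO and from 8.21 to 12.04 in control fat. The part of these cells in the levels of the depot factors was not tested.

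The genotype comparison asks how these factors differ in fat whose fat cells carry the Fto deletion. None of the 23 probe sets passed the test. By limma over all 34945 probe sets, without pairing, 0 probe sets (0%) had an adjusted p under 0.05, and 434 (1.24%) had an unadjusted p under 0.05, with 0 of the 23 among them. The 23 differences ran from -0.54 to 0.61 with a median of -0.02, against a median of -0.02 over all probe sets, and 13 of the 23 were lower in AFO. With replicate number as a block, 2 probe sets (0.00572%) passed and 0 of the 23. Without both replicate 2 arrays, 159 (0.455%) passed and 0 of the 23, while an unadjusted p under 0.05 was met by 4.43% of all probe sets and by 4 of the 23 (En1, Gata6 1425464_at, Prrx1 1439774_at and Tbx15 1418755_at).

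The mean of Tcf21 was 6.20 ± 3.08 in AFO fat, against 6.19 ± 3.13 in control fat (SD over 3 arrays each). Its log2 difference of 0.01 had a 95% interval from -4.51 to 4.53 (limma adjusted p 0.999956). Without the replicate 2 arrays the difference was -0.01 with an SE of 0.18. The unpaired fit over 6 arrays could therefore not show a difference of several units in Tcf21, while the 4 other arrays limit it to an interval from -0.42 to 0.39.

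Tbx15 (1418755_at) was higher in AFO than in control fat at each replicate number, by 0.63, 0.68 and 0.52 log2 units. AFO replicate 3 and control replicates 1 and 3 lay below the yardstick, so only number 2 compares levels that both lay above it. The mean of Tbx15 was 6.16 ± 1.29 in AFO fat, against 5.55 ± 1.23 in control fat (SD over 3 arrays each), with overlapping genotypes. The difference of 0.61 (SE 0.79, limma adjusted p 0.999956) did not pass. Its SE was 0.13 with the replicate block (limma adjusted p 0.998), and without the replicate 2 arrays the difference was 0.58 (SE 0.19, limma adjusted p 0.789). The other Tbx15 probe set differed by -0.18, 1.00 and 0.79, so it did not keep 1 direction. All 9 skeletal muscle genes were higher in AFO by the mean, with median differences of 4.28, 2.54 and -0.11 at numbers 1, 2 and 3. The part of muscle in the Tbx15 difference was not tested. En1 was higher at each number too, by 0.37, 0.18 and 0.49, at levels below the yardstick. Its fitted difference was 0.35 (SE 0.15) over 6 arrays and 0.43 (SE 0.15) without replicate 2, neither passing.

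Gata6 was lower in AFO fat at each replicate number in both brighter probe sets, by -0.40, -0.14 and -0.71 for 1425464_at and by -0.49, -0.35 and -0.17 for 1425463_at. The first had a mean of 6.75 ± 0.48 in AFO fat, against 7.17 ± 0.70 in control fat (SD over 3 arrays each), a log2 difference of -0.42 (SE 0.39, limma adjusted p 0.999956). Without the replicate 2 arrays it was -0.55 (SE 0.18, limma adjusted p 0.761). The second probe set had a difference of -0.34 (SE 0.40) over 6 arrays and -0.33 (SE 0.19) without replicate 2, neither passing. The remaining Gata6 set, 1443081_at, not above the yardstick on any array, differed by -0.33, 0.14 and 0.82. Its fitted difference was 0.21 (SE 0.20) over 6 arrays and 0.25 (SE 0.26) without replicate 2, neither passing. Osr1 differed by -0.17, -0.06 and -0.68 and Prrx1 (1425528_at) by -0.11, -0.38 and -0.56, with fitted log2 differences of -0.30 (SE 0.60) and -0.35 (SE 0.17), neither passing. Without replicate 2 these were -0.42 (SE 0.19) for Osr1 and -0.34 (SE 0.18) for Prrx1, again not passing. The other Prrx1 sets differed in size. Over 6 arrays, 1425527_at and 1432129_a_at, both above the yardstick on every array, differed by -0.0064 and -0.039. The sets 1425526_a_at and 1439774_at differed by -0.54 and -0.35, and the dim 1458004_at by 0.0091. Without replicate 2 the difference of 1439774_at was -0.58. The dimmer Tbx18 probe set, 1449871_at, below the yardstick on every array, was the only 1 of the 23 whose genotypes did not overlap. Its difference was -0.27 (SE 0.13) over 6 arrays and -0.20 (SE 0.17) without replicate 2. Of all probe sets, 3.97% had genotypes that did not overlap. In the brighter Tbx18 set, 1429974_at, the genotypes overlapped, with differences of -0.02 (SE 0.26) and -0.13 (SE 0.19).

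Counted over the members, 7 of 23 probe sets (30.4%), from 5 genes, were lower in AFO at all 3 replicate numbers, where 12.5% of all probe sets were. Another 2 of 23 (8.70%) were higher at all 3, where 9.45% of all probe sets were. Probe sets of 1 gene share their transcript, and Gata6 and Prrx1 supply 4 of the 7. Gata4 1418863_at and Tbx18 1449871_at, the only sets of their genes among the 7, did not rise above the yardstick on any array. Nor did En1, which is among the 2 higher sets. With the replicate block, 5 of the 23 had an unadjusted p under 0.05 (En1, both brighter Gata6 sets, Prrx1 1425528_at and Tbx15 1418755_at), where 3.45% of all probe sets did. None of these kept an adjusted p under 0.05, the smallest limma adjusted p among the 23 with the block being 0.998.

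**Figure D3:**
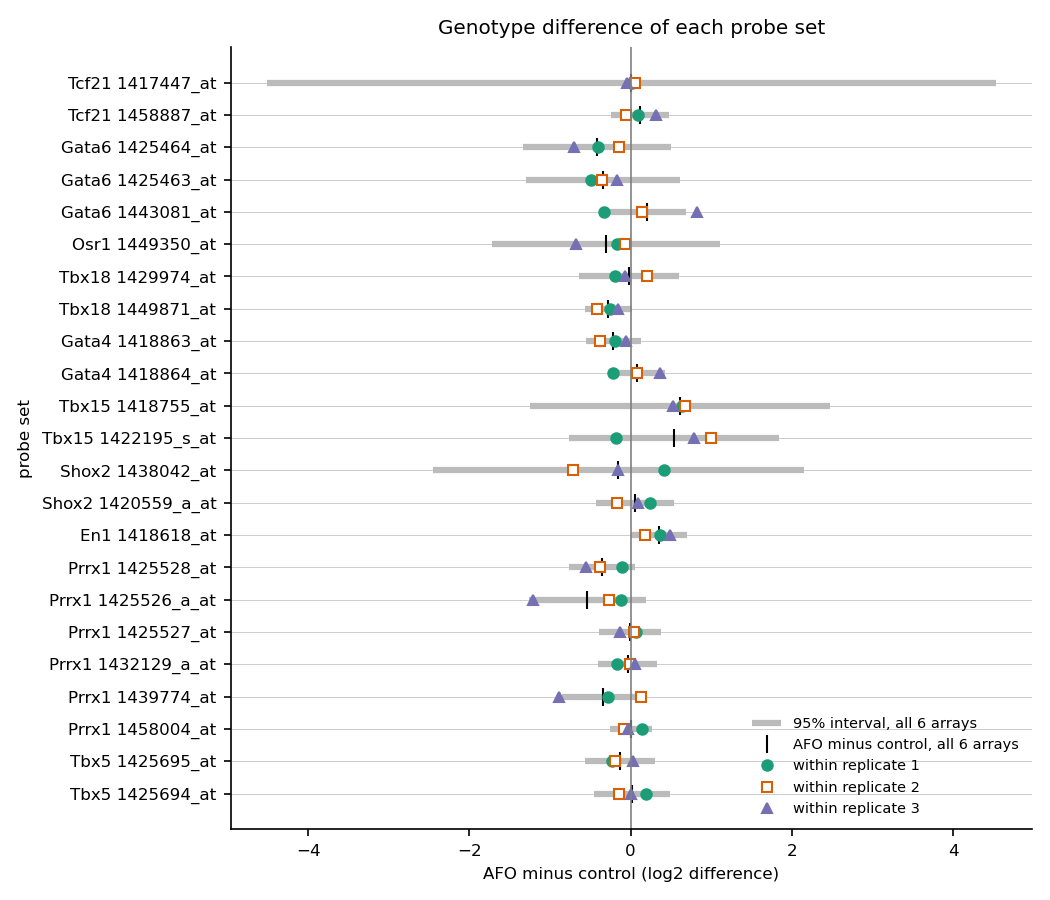
AFO minus control (log2 difference, horizontal axis) for each of the 23 probe sets, with black ticks for the fit over 6 arrays, grey bars for its 95% interval, and symbols for the difference within replicate 1 (circle), 2 (open square) and 3 (triangle). All grey bars reach 0, and those of Tcf21, Tbx15 and Shox2 are wide although the symbols of their brightest probe sets lie within 1 unit of 0.

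Genes that earlier work in mice links to the same depots were read next, from lists written for this comparison. Of 4 genes reported higher in epididymal than in flank fat, all 4 were lower on both replicate 2 arrays than on the other 4. Hoxc8, a homeobox factor of the trunk, read 9.52, 7.72 and 9.16 in AFO fat and 9.69, 8.23 and 9.30 in control fat. Nr2f1, an orphan nuclear receptor, ran from 5.65 to 7.29 in AFO and from 5.33 to 7.61 in control fat, with the low end on replicate 2 in both. Thbd, the thrombin receptor thrombomodulin, and Hoxa5, another homeobox factor, shifted on replicate 2 by -2.05 and -1.37 in AFO and by -1.61 and -1.51 in control fat.

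The 2 genes reported higher in flank fat were not higher on replicate 2, unlike Tbx15 and Shox2. Sfrp2, a secreted modulator of Wnt signalling, read 7.70, 7.33 and 7.87 in AFO and 8.31, 6.89 and 8.05 in control fat, with replicate 2 the lowest array of each. Hoxc9, a homeobox factor, stayed between 6.29 and 6.59 in AFO and between 6.53 and 6.61 in control fat, and its replicate 2 values overlapped the others. None of these 6 genes passed the genotype test, with or without the replicate 2 arrays.

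Developmental partners of the factors moved both ways on the arrays where Tcf21 was low. Of 24 listed genes 22 had a probe set, and both replicate 2 arrays were below the other 4 in 11 and above them in 8. Over all probe sets these shares were 21.9% and 19.1%. The 4 genes described next were named for the widest range over the 6 arrays, and all were lower on replicate 2. Wt1, the zinc finger factor of the mesothelium, read 7.57, 4.38 and 7.81 in AFO fat and 7.92, 4.55 and 7.78 in control fat. Bnc1, a zinc finger protein also on the mesothelial list, shifted on replicate 2 by -3.50 in AFO and -3.85 in control fat. Aldh1a2, an enzyme that makes retinoic acid, shifted by -2.50 and -2.05, and Zfpm2, the cofactor that binds Gata4, by -2.02 and -1.88. Zfpm2 thus had a drop on replicate 2 that Gata4 itself, below the yardstick, did not show.

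**Figure D4:**
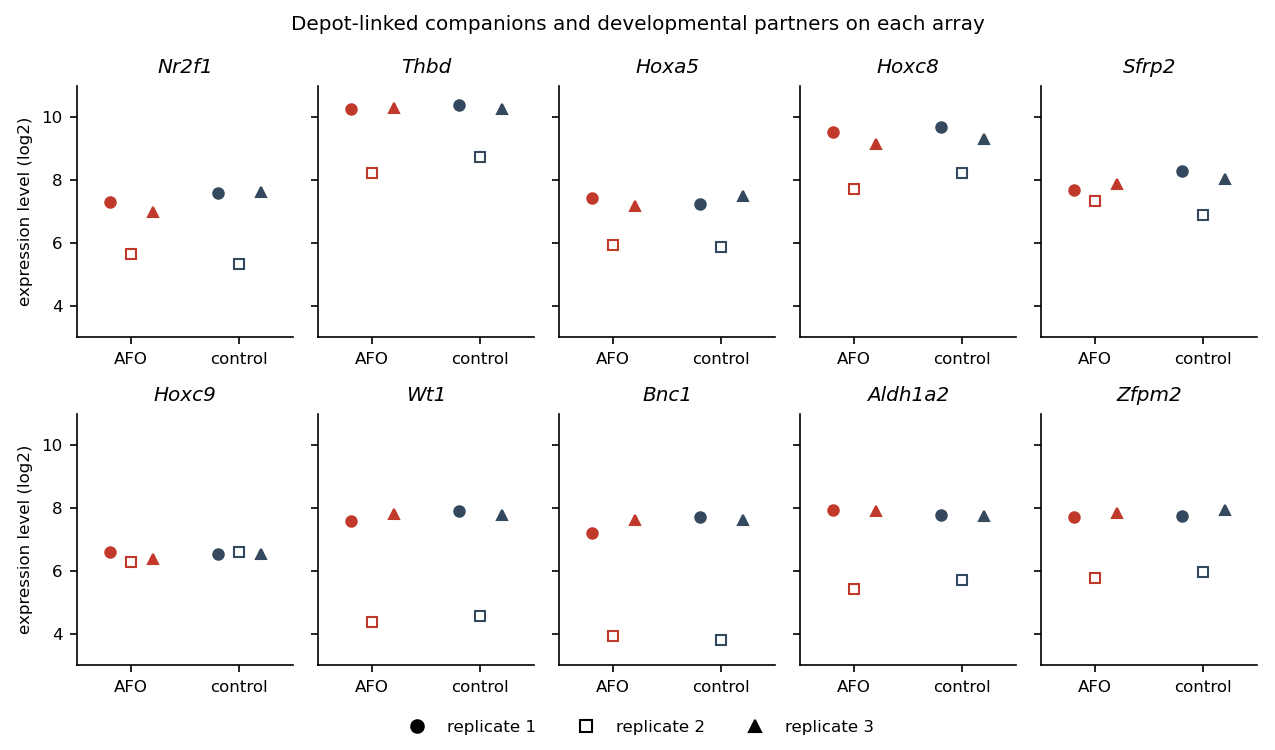
Expression level (log2, vertical axis) of 6 genes linked to epididymal or flank fat and 4 developmental partners in AFO (red) and control fat (dark grey), with symbols for replicate numbers 1 (circle), 2 (open square) and 3 (triangle). The open squares are lowest for all genes shown except Hoxc9, whose 6 values lie between 6.29 and 6.61.

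Among the partners, 0 of 22 passed the genotype test over 6 arrays, and 1 passed without the replicate 2 arrays. This was Emx2, a homeobox factor of the urogenital tract, named after its values were seen. It read 6.37, 5.30 and 6.19 in AFO and 4.78, 5.35 and 4.70 in control fat, with a difference without replicate 2 of 1.54 (SE 0.18, limma adjusted p 0.0154) and one over 6 arrays of 1.01 (SE 0.32, limma adjusted p 0.999956). Genes of the epididymal duct had medians of 7.88, 4.73 and 4.49 in AFO and 4.49, 4.74 and 4.44 in control fat, high on AFO replicate 1 and not on AFO replicate 3. The part of these or of other epithelial cells in the Emx2 values was not tested. Of the 159 probe sets that passed without the replicate 2 arrays, 157 were higher in AFO, as Emx2 was.

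Relatives of the 10 factors from the same protein families were read as well. Of 26 listed, 25 had a probe set, 6 lay above the yardstick on all 6 arrays, and 0 passed the genotype test, with or without the replicate 2 arrays, with a 6-array median difference of -0.04. The 4 with the widest range were Tbx2, Tcf23, Gata3 and Tbx21. Tbx2, a T-box repressor of limb and heart, shifted on replicate 2 by -1.64 in AFO and -1.20 in control fat, and Tcf23, a helix-loop-helix protein, by -1.32 and -0.70. Gata3, which directs T cell fates, read 4.01, 4.47 and 3.96 in AFO and 4.05, 5.56 and 4.07 in control fat, and Tbx21, another T cell factor, shifted upward on replicate 2 by 1.43 in AFO and 1.08 in control fat. Of 6 T cell genes, 5 were higher on both replicate 2 arrays than on the other 4, and the part of T cells in these levels was not tested. The closest relatives of Osr1, Prrx1 and En1, which are Osr2, Prrx2 and En2, were below the yardstick on every array.

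Profiles most like those of Tcf21 and Tbx15 were found among 16313 other genes by the root mean square distance over the 6 arrays, after each gene was centred on its own mean. Nearest to Tcf21 were Rspo1, an enhancer of Wnt signalling (distance 0.45 log2 units), Upk3b, a uroplakin of the mesothelium (0.72), Msln, the mesothelial surface protein mesothelin (0.73), Slc39a8, a metal ion transporter (0.79), and Sult1e1, a sulfotransferase of oestrogens (0.80). Rspo1 read 8.33, 3.41 and 8.21 in AFO fat and 8.04, 3.56 and 7.71 in control fat. Nearest to Tbx15 were Ripor2 (0.18), Hvcn1, a proton channel of leukocytes (0.21), Cd72, a B cell surface protein (0.22), H2-DMb2, which helps load MHC class II molecules (0.22), and Nup210, a nuclear pore protein (0.23). Cd72 read 4.96, 7.52 and 4.97 in AFO fat and 4.66, 7.03 and 4.78 in control fat, high on the same arrays as Tbx15. Likeness over 6 arrays is a description of these arrays.

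**Figure D5:**
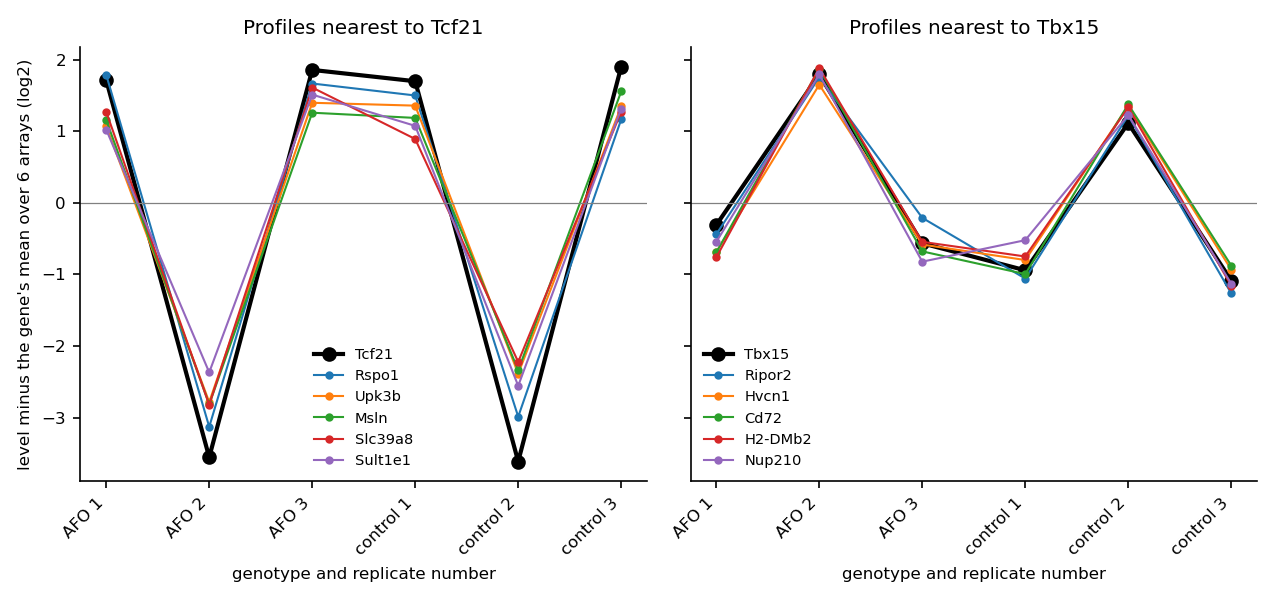
Level minus the gene's own mean over the 6 arrays (log2, vertical axis) by genotype and replicate number, for Tcf21 (black, left) and Tbx15 (black, right) with the 5 nearest genes of each as coloured lines. The left set dips on replicate 2 of both genotypes and the right set peaks there.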

How the data were processed

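RNA of 6 pools was measured on Affymetrix mouse arrays. Per the submitters' processing notes the authors' deposited log2 values were made with RMA (background correction, quantile normalisation, probe set summary) in Affymetrix Expression Console 1.4, and array medians were 5.35 to 5.43. Quantile normalisation hides a change shared by most genes, and RMA draws low signals together. The values keep scale and centring as deposited, and levels of different probe sets are not comparable.

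Of 45101 probe sets 64 were controls, and the platform annotation gave 34945 a single symbol, 932 several and 9160 none listed. The 34945 were tested singly, with no filter, since members count whatever their level. Of the 23 member probe sets 13, from 8 genes, would pass a filter at the 40th percentile of means (4.88). The genotype difference came from limma 3.58.1 (R 4.3.3), a linear model with moderated variances and a mean-variance trend, with Benjamini-Hochberg adjustment over all probe sets and calls at adjusted p under 0.05. Figures used matplotlib 3.10.9.

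Groups and replicate numbers came from the titles. Deviations from genotype means correlated at 0.486, 0.733 and 0.371 for equal numbers 1, 2 and 3, above the 0.1 asked for pairing. Unequal numbers 1 and 3 also exceeded it (0.341 and 0.392), and the 0.392 was above the 0.371 of equal numbers 3. Each gene was centred on 3 arrays, so a replicate 2 shift common to both genotypes by itself raises the correlations among numbers 1 and 3. The check therefore cannot show that numbers 1 and 3 are paired. What equal numbers have in common is not given in the sources used here. The block is therefore only an alternative, given beside results whose calls it changes.

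Members, lists and tests were chosen with earlier results of these data known. The text names every member, all genes of lists of up to 10, the 4 widest-ranging genes of longer lists and those passing, and the 5 profiles nearest to Tcf21 and Tbx15. For marker lists, summed levels and medians stand in for single genes. Genes outside a member list were read from their brightest probe set.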

Additional observations from a re-analysis of the deposited data

How the results depend on the processing

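Over 16 alternatives to the genotype fit, 0 of the 23 probe sets passed in any, the smallest limma adjusted p being 0.636 (En1, without both replicate 2 arrays and with the replicate block). Over all probe sets the count of calls moved to 2 with the replicate block, to 159 without both replicate 2 arrays and to 249 without them and with the replicate block. With 1 array left out it ran from 0 to 90, the 90 without AFO replicate 2. Of the 133 listed genes, 0 passed in the unpaired fit and 0 with the replicate block, which for these listed genes alone was added after the data were seen. Without both replicate 2 arrays 2 passed, Emx2 and Krt18, an epithelial keratin on the mesothelial list.

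Of 188 member values under settings that left out no single array, 9 changed sign, in 4 probe sets. With array weights, Tcf21 1417447_at was -0.73, Shox2 1438042_at 0.71 and Gata6 1443081_at -0.00033. Without both replicate 2 arrays, with or without the replicate block, Tcf21 1417447_at was -0.015 and Shox2 1438042_at 0.13. Prrx1 1425527_at was 0.0074 with quantile normalisation repeated and 0.0017 with median centring. Leaving out 1 array turned the sign of 14 probe sets. Their log2 differences then ran from -1.79 to 1.79 for Tcf21 1417447_at, -0.13 to 1.32 for Tbx15 1418755_at, -0.046 to 1.02 for Tbx15 1422195_s_at, -0.90 to 0.87 for Shox2 1438042_at, -0.059 to 0.27 for Shox2 1420559_a_at, -0.030 to 0.22 for Gata4 1418864_at and -0.69 to 0.021 for Gata6 1425463_at. They ran from -0.27 to 0.012 for Tbx5 1425695_at, -0.095 to 0.20 for Tbx5 1425694_at, -0.28 to 0.13 for Tbx18 1429974_at, -0.90 to 0.18 for Osr1, -0.088 to 0.11 for Prrx1 1425527_at, -0.12 to 0.029 for Prrx1 1432129_a_at and -0.050 to 0.080 for Prrx1 1458004_at. The lowest and highest values of Tcf21, Tbx15 1418755_at and Shox2 1438042_at came from leaving out a replicate 2 array of 1 genotype, which unbalances the groups. The same held for Gata6 1425463_at, Osr1 and Prrx1 1432129_a_at. For the remaining sets at least 1 of these extremes came from leaving out another array, and the cause was not tested. The number of arrays, 3 a genotype, limits the precision, and 11 of the 23 probe sets lay below the olfactory yardstick on all 6.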
